A study of Homo sapiens with 14 samples.

Results

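SPRY1, SPRY2, SPRY4, SPRED1, SPRED2, DUSP4, DUSP5, DUSP6, ERRFI1 and ETV5 are genes whose transcription follows the activity of the ERK MAP kinase pathway, and all but the last encode proteins that restrain it. Their expression, that of 10 among 23106 gene symbols counted, was followed in RNA-seq libraries of PC3 and HCT116 cells made from polyadenylated RNA. PC3 is a line from a human prostate carcinoma and HCT116 a line from a human colorectal carcinoma. Cells of each line, with no other agent or genotype, were incubated in normoxia (21% O2) or hypoxia (0.5% O2) for 16 h, in 4 replicate libraries per condition for PC3 and 3 for HCT116. The genes were chosen by name, and selected on their normoxic level in each line and the direction of their hypoxic response, so their differences between conditions and between lines are given as descriptions without p-values. All 10 had enough counts to enter the fit of each line, beside 14309 genes tested in PC3 and 14120 in HCT116.

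The ERK pathway carries growth factor signals from receptor tyrosine kinases through RAS, RAF and MEK to ERK, and it is held in check by proteins that its own output induces. Sprouty proteins (SPRY) act between the receptor and RAF. SPRED proteins bring the RAS GTPase-activating protein neurofibromin to the membrane. The dual-specificity phosphatases DUSP4, DUSP5 and DUSP6 remove the activating phosphates from ERK itself, the first pair in the nucleus and DUSP6 in the cytoplasm. ERRFI1 (also called MIG6) binds the EGF receptor and blocks its kinase, and ETV5 is a PEA3-family ETS transcription factor that serves as a readout of ERK output.

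Total gene counts were 98021966 to 123935458 in normoxic and 71228454 to 96159803 in hypoxic PC3 libraries, and 136931675 to 147934177 and 133067391 to 150630928 in HCT116. The study's methods call the libraries biological replicates, but the labels do not say how the cultures were split, and line and library number cannot be told apart. The PC3 libraries numbered 1 stood apart in both conditions, with a chi-square per gene against other replicates of 103 to 268 where other PC3 pairs had 12.5 to 148. Results without both of them are given for the members past the threshold in PC3, for DUSP1, LRIG1 and SOCS3, and for the pathway calls. The other PC3 changes and all PC3 levels and shares include them. Among hypoxic PC3 libraries, replicate 4 was about as far from replicates 2 and 3 (108 and 147.5) as replicate 1 was (119.9 and 103). CDX2, a colon transcription factor, was at 16.2 to 20.9 CPM (the count of a gene scaled to the size of its library after TMM) in HCT116 and 0 in PC3, and HOXB13, a prostate factor, was at 61.9 to 92.9 in PC3 against 9.57 to 10.9 in HCT116. Only 2 of 7 colon markers in HCT116 and 3 of 7 prostate markers in PC3 exceeded 1 CPM in every library. VIL1 and CDH17 in HCT116, and KLK3 and FOLH1 in PC3, were at or near 0. Of 8 markers of blood, endothelial and stromal cells, the leukocyte gene PTPRC stayed below 1 CPM everywhere, and the summed level, in PC3 mostly CD68, was 44.6 to 49.8 CPM in normoxic and 51.3 to 60.9 in hypoxic PC3 libraries and 17.6 to 20.5 and 23.0 to 23.3 in HCT116. The part of these transcripts in the results was not tested. All 8 hypoxia-inducible control genes (NDRG1, CA9, VEGFA, EGLN3, BNIP3, ADM, PDK1 and SLC2A1) were higher in hypoxia in each line at an adjusted p under 0.05 (edgeR).

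Hypoxia moved the feedback genes unevenly. ERRFI1 and DUSP6 were higher in hypoxia in both lines, SPRY1 and DUSP4 were lower in PC3 and higher in HCT116, DUSP5 was higher in PC3 and SPRED1 in HCT116, and SPRED2 was slightly higher in both. In SPRY2, SPRY4 and ETV5 the conditions overlapped in each line. Hypoxic libraries lay above all normoxic ones for 4 genes in PC3 (9.62% of all genes tested) and below for 2 (11.3%), and above for 6 genes in HCT116 (20.3%) and below for 0 (22.2%). In PC3, 5 of the 10 genes lay past an adjusted p of 0.05 in edgeR's quasi-likelihood test (3 higher, 2 lower), where 11.3% of all genes tested did (6.03% higher, 5.29% lower). In HCT116 6 of 10 did, all of them higher, where 25.9% of all genes did (14.6% higher). With total-count scaling the HCT116 count was 4, all higher, and the PC3 count was 5 (3 higher, 2 lower). The choice of the genes used these contrasts, so nothing is read from the counts. Leaving out single libraries took the PC3 count to as few as 2 (without hypoxia replicate 2) and the HCT116 count to as few as 4 (without normoxia replicate 2). With the replicate number as a block, which pairs the PC3 libraries, SPRED2 and ETV5 joined them and the PC3 count was 7 (5 higher), against 28.5% of all genes. Without both PC3 libraries numbered 1 it was again 5, with log2 changes of -0.29 for SPRY1, -0.24 for DUSP4, 0.73 for DUSP5, 0.63 for DUSP6 and 1.31 for ERRFI1. Without PC3 hypoxia replicate 4 it was 5 as well, with log2 changes of -0.34 for SPRY1, -0.23 for DUSP4, 0.46 for DUSP5, 0.53 for DUSP6 and 1.22 for ERRFI1. The median log2 change of the 10 genes was 0.15 in PC3 and 0.24 in HCT116, beside 0.00233 and 0.00178 over all genes tested.

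**Figure D1:**
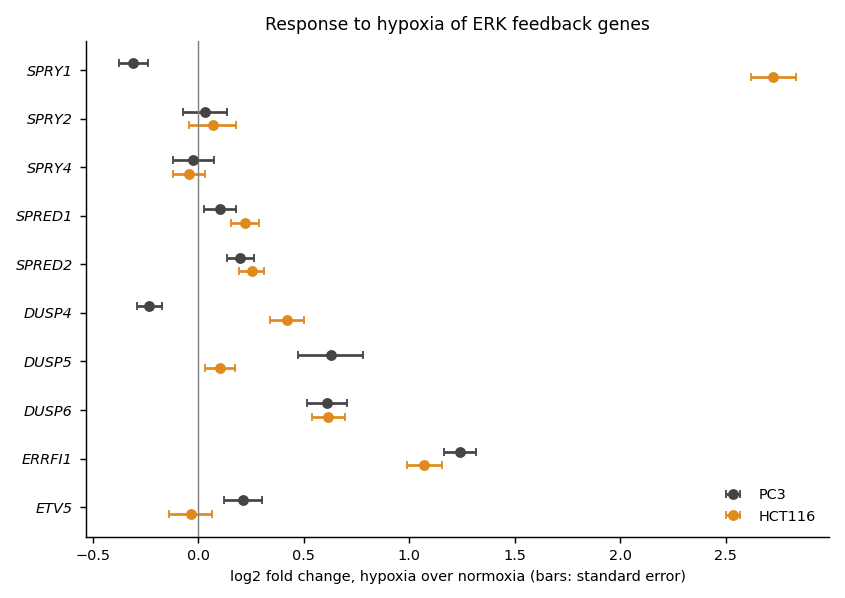
Log2 fold change of the 10 genes in hypoxia over normoxia (x axis) in PC3 (dark) and HCT116 (orange), with standard errors as bars. SPRY1 and DUSP4 lie on opposite sides of 0 in the 2 lines, at -0.31 and 2.72 and at -0.23 and 0.42, while DUSP6 (0.61 in each) and ERRFI1 (1.24 and 1.07) lie together.

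SPRY1 was the member with the widest gap between the lines. In HCT116 its expression was 1.53, 1.43 and 1.26 CPM in normoxia (169 to 229 counts) and 9.23, 9.02 and 9.40 CPM in hypoxia (1194 to 1320 counts). Every hypoxic HCT116 library thus lay far above every normoxic one, with little spread within a condition. The log2 fold change was 2.72 (standard error 0.11), a 6.61-fold higher level, which placed SPRY1 24th of the 14120 genes of this line by size of rise. In PC3, SPRY1 started from 52.7, 51.3, 57.0 and 56.5 CPM in normoxia and stood at 40.6, 42.8, 44.4 and 47.3 in hypoxia. The conditions did not overlap here either, but hypoxia was the lower one, by 0.31 on the log2 scale (change -0.31, standard error 0.07), and the 4 same-numbered pairs differed by -0.38 to -0.26. The responses of the lines differed by -3.02 (PC3 minus HCT116, standard error 0.11). Even after its increase, hypoxic HCT116 cells held 9.22 ± 0.192 CPM (SD, n = 3) against 43.8 ± 2.84 (SD, n = 4) in hypoxic PC3 cells, so the response narrowed the gap between the lines and did not close it.

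Among all genes tested in both lines, 41 of 13090 (0.313%) were past the threshold in opposite directions and 702 (5.36%) in the same direction. For the difference between the lines itself, 2 members (SPRY1 and DUSP4) were past the threshold, where 2.32% of all genes were. With the replicate block DUSP5 joined them (0.52, PC3 minus HCT116, standard error 0.12), where 8.43% of all genes were. SPRY1 and DUSP4 belong to the 41, and DUSP6 and ERRFI1 to the 702. Since the direction in each line was used to choose the genes, these shares only set the scale.

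SPRY1 lies on chromosome 4 from 124317950 to 124324915 (GRCh37, plus strand). Its promoters are shown because its response reversed between the lines. RefSeq (GRCh38.p14) gives a pair of start sites, and the windows run from 250 bases before to 50 after each, at chr4:123396545-123396844 and chr4:123398136-123398435 on the plus strand. Capitals mark the core of the hypoxia response element to which HIF binds, searched as ACGTG and GCGTG, and an ETS core, searched as CCGGAA, on both strands.
SPRY1 promoter 1: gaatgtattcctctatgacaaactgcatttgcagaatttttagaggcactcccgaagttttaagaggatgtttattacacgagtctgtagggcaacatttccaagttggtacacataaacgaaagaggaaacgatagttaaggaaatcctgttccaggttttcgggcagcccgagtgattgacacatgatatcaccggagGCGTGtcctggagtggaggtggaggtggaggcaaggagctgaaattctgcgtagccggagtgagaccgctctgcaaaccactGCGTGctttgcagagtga
SPRY1 promoter 2: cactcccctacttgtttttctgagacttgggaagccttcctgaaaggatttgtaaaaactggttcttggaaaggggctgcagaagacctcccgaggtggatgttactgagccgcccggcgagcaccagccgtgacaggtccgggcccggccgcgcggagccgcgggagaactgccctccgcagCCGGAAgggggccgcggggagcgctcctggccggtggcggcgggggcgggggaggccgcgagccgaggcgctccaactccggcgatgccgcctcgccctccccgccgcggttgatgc
The first window holds GCGTG at -50 and again at +33 from the start site, and the second holds CCGGAA at -67. Of all 35116 promoter windows of this length, 36.5% hold GCGTG, 21.4% ACGTG, 48.4% either of them and 17.2% CCGGAA, so matches of this kind are common and describe the letters only.

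SPRY2 and SPRY4 showed no difference beyond the spread between replicates. SPRY2 in PC3 was at 39.0, 32.4, 35.7 and 28.2 CPM in normoxia and 37.2, 34.5, 33.3 and 32.9 in hypoxia, and in HCT116 at 5.44, 5.78 and 4.47 against 5.41, 5.67 and 5.17. The hypoxic values fell inside or across the normoxic range in each line. The log2 changes were 0.03 (standard error 0.11) and 0.07 (standard error 0.11). SPRY4 was at 34.9, 27.3, 28.6 and 31.6 CPM in normoxic and 33.0, 29.2, 27.9 and 29.9 in hypoxic PC3 cells, and at 85.4, 82.2 and 76.3 against 70.4, 78.2 and 85.2 in HCT116. Its log2 changes of -0.02 (standard error 0.10) and -0.05 (standard error 0.08) were also smaller than the spread between replicates, and the sign of SPRY2 and SPRY4 turned in each line under some alternatives, total-count scaling among them for SPRY2. Strand was not stated for the counting, and 414 exon bases of SPRY4 lie within the span of the antisense gene SPRY4-AS1, introns included.

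The lines differed in which Sprouty gene they used. Per kilobase of exon, SPRY1 made up 47.5% ± 3.29 (SD, n = 4) of the summed Sprouty level in normoxic PC3 cells, SPRY2 36.3% ± 3.37 and SPRY4 16.1% ± 1.39. In normoxic HCT116 cells SPRY4 held 86.2% ± 0.938 (SD, n = 3), SPRY2 11.3% ± 0.904 and SPRY1 2.47% ± 0.0888. No share overlapped between the lines. Hypoxia brought the SPRY1 share in HCT116 to 14.7% ± 0.978 and that of SPRY4 to 74.7% ± 1.89. In hypoxic PC3 cells SPRY1 and SPRY2 stood at 41.9% ± 2.83 and 40.7% ± 2.01, level only by the union of exons. Per kilobase of the longest transcript, SPRY1 was at 16.8 CPM and SPRY2 at 12.7 in hypoxic PC3 cells. The summed level stood at 28.9 ± 1.68 CPM per kb in normoxic and 26.3 ± 0.524 in hypoxic PC3 cells, against 14.4 ± 0.922 and 15.9 ± 1.12 in HCT116. The remaining family member, SPRY3, had next to no counts in either line and was not tested.

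**Figure D2:**
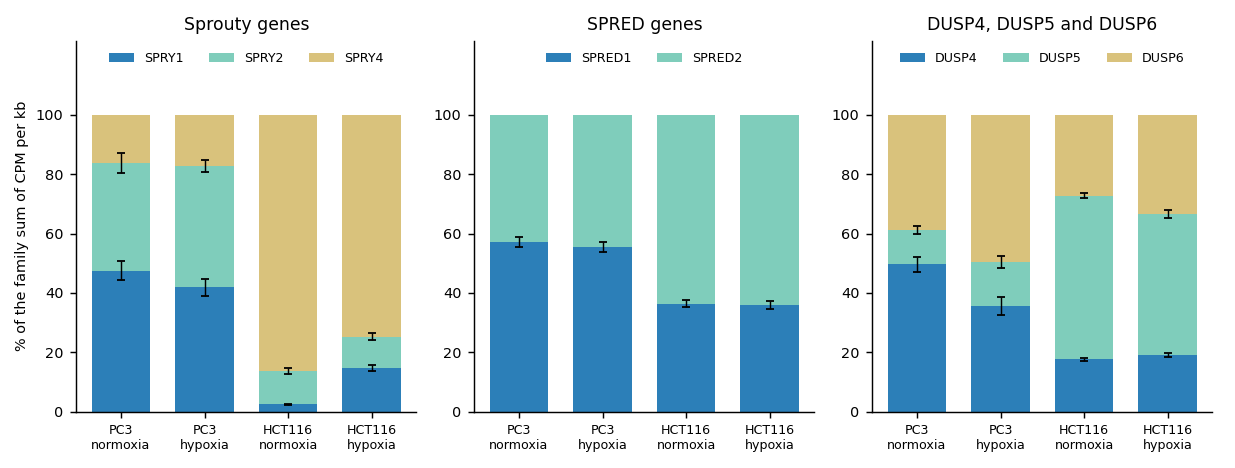
Share of each gene in the summed expression of its family, from CPM per kilobase of exon (y axis, % of the sum), by line and condition, mean of 4 PC3 or 3 HCT116 libraries with SD bars at the boundaries. SPRY4 fills 86.2% of the normoxic Sprouty sum in HCT116 and 16.1% in PC3, and DUSP5 fills 55.2% of the phosphatase sum in HCT116 and 11.6% in PC3.

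The SPRED genes differed by small amounts. SPRED2 was at 60.4, 63.5, 63.0 and 68.0 CPM in normoxic and 74.0, 72.6, 68.2 and 76.6 in hypoxic PC3 cells, and at 75.8, 73.3 and 72.0 against 83.9, 86.2 and 90.3 in HCT116. Hypoxic libraries lay above normoxic ones in both lines, in PC3 by a narrow margin. The log2 changes were 0.20 (standard error 0.06) and 0.25 (standard error 0.06), and as low as 0.09 and 0.16 over the alternatives. SPRED1 overlapped between conditions in PC3, at 106 to 128 CPM in normoxia and 118 to 141 in hypoxia, with a log2 change of 0.10 (standard error 0.08) that turned to -0.01 under total-count scaling. In HCT116 it did not overlap, at 60.1, 62.7 and 55.6 CPM against 68.4, 70.7 and 66.2. This was a change of 0.22 (standard error 0.07), and as low as 0.13 over the alternatives. The balance of the pair was apart between the lines and overlapped between conditions. SPRED1 took 57.1% ± 1.77 of the SPRED sum per kilobase in normoxic PC3 and 36.4% ± 1.25 in normoxic HCT116 cells, and 55.5% ± 1.59 and 35.9% ± 1.44 in hypoxia.

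The ERK phosphatases split by line and by member. DUSP6, the cytoplasmic ERK phosphatase, was at 151, 141, 144 and 167 CPM in normoxic and 218, 226, 206 and 269 in hypoxic PC3 cells. In HCT116 it was at 109, 107 and 98.8 in normoxia and 141, 173 and 162 in hypoxia. No hypoxic library overlapped a normoxic one. The log2 fold changes of 0.61 (standard error 0.09) in PC3 and 0.61 (standard error 0.08) in HCT116 differed by 0.01 (standard error 0.14). DUSP6 lies on chromosome 12 from 89741012 to 89746278 (GRCh37, minus strand). Of its exon bases, 1105 lie within the span of an unnamed lncRNA on the other strand, introns included. The DUSP6 counts may include reads from that gene.

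The DUSP6 promoter is shown as that of a gene that was higher in hypoxia to the same extent in both lines, at chr12:89352452-89352751 (GRCh38.p14, minus strand, RefSeq), with a match to the HIF core on the opposite strand, at -53, in capitals.
DUSP6 promoter: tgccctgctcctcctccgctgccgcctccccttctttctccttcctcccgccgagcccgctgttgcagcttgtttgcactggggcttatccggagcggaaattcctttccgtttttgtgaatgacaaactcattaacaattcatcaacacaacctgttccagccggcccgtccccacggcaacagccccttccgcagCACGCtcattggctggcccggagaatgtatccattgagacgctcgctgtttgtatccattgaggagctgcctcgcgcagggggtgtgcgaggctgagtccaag

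DUSP4, a nuclear ERK phosphatase, was the second gene with opposite responses. It was at 355, 356, 383 and 360.0 CPM in normoxic PC3 cells and 301, 309, 313 and 308 in hypoxic ones. All PC3 hypoxic libraries were lower, with a log2 change of -0.23 (standard error 0.06). In HCT116 it was at 131, 121 and 133 CPM in normoxia and at 153, 188 and 168.5 in hypoxia, where all hypoxic libraries were higher, with a log2 change of 0.42 (standard error 0.08). The responses differed by -0.64 (PC3 minus HCT116, standard error 0.10). As with SPRY1, the level was lower in hypoxia in PC3, the line with the higher normoxic level, and DUSP4 remained higher in PC3 than in HCT116 in both conditions.

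DUSP5, the other nuclear phosphatase, was at 32.1, 26.0, 26.6 and 34.5 CPM in normoxic and 39.6, 40.7, 41.7 and 61.5 in hypoxic PC3 cells. The hypoxic libraries lay above the normoxic ones, and replicate 4 stood well above the other hypoxic libraries. The log2 change was 0.63 (standard error 0.15), the widest error among the members, and 0.46 to 0.70 with single libraries left out. In HCT116, DUSP5 was at 142, 136 and 143 CPM against 134, 155 and 157, a change of 0.10 (standard error 0.07) within the spread. The difference between the lines was 0.53 (standard error 0.20).

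Per kilobase, DUSP4 led this group in normoxic PC3 cells with 49.6% ± 2.65 of the sum of DUSP4, DUSP5 and DUSP6, and DUSP5 was last with 11.6% ± 1.23. In normoxic HCT116 cells DUSP5 led with 55.2% ± 0.887 and DUSP4 was last with 17.6% ± 0.608. In hypoxic PC3 cells DUSP6 took the lead with 49.5% ± 1.63 while DUSP4 stood at 35.5% ± 3.06. In hypoxic HCT116 cells DUSP5 remained first with 47.7% ± 1.22, followed by DUSP6 with 33.4% ± 0.598. The sum itself was 100.8 ± 4.36 CPM per kb in normoxic PC3 and 100.1 ± 2.15 in normoxic HCT116 cells, with overlapping spread, and 119.9 ± 11.1 and 123 ± 11.2 in hypoxia. The likeness of the normoxic sums depends on the use of the union of exons. Per kilobase of the longest transcript, DUSP4 was at 65.4 rather than 49.97 CPM in normoxic PC3 cells. DUSP5 was at 56.6 rather than 55.3 in normoxic HCT116 cells.

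ERRFI1, the inhibitor of the EGF receptor kinase, had the highest level of the 10 genes per kilobase in all 4 groups, though its range overlapped that of DUSP4 in normoxic PC3 cells. In PC3 it was at 224, 214, 200.4 and 222 CPM in normoxia and 454, 549, 496 and 528 in hypoxia. In HCT116 it was at 579, 608 and 633 CPM in normoxia and 1112, 1389 and 1281 in hypoxia. The lowest hypoxic library exceeded the highest normoxic one by a wide margin in each line, and normoxic HCT116 cells already held more than hypoxic PC3 cells. The log2 fold change was 1.24 (standard error 0.08) in PC3, a 2.36-fold higher level and rank 112 of 14309, and 1.07 (standard error 0.08) in HCT116, a 2.10-fold higher level and rank 245 of 14120. The responses of the lines differed by 0.18 (standard error 0.12). Of the ERRFI1 exon bases, 155 lie within the span of an unnamed lncRNA on the other strand, introns included. A part of the ERRFI1 counts may come from that gene.

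The ERRFI1 promoter is shown as that of the member with the highest level and a response of like size in both lines. The gene lies on chromosome 1 from 8064464 to 8086369 (GRCh37, minus strand), and the window at chr1:8026260-8026559 (GRCh38.p14, minus strand, RefSeq) holds neither HIF core nor the ETS core, so no letters are in capitals.
ERRFI1 promoter: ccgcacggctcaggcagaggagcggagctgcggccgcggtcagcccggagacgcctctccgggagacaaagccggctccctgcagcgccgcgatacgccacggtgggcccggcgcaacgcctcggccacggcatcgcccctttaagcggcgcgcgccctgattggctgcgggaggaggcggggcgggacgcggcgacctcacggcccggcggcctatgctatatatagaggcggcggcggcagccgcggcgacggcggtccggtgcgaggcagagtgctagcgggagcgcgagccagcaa
Of the members, 7 had RefSeq promoter entries, with 11 windows in all. A HIF core was found in 3 of the 11 and the ETS core in 2, the latter in SPRY1 and SPRY2. SPRED2 held GCGTG at -75 in its first window and the AP-1 letters TGACTCA, found in 4.95% of all windows, at -6 in its second. No searched motif was in the windows of SPRY4 and SPRED1, and the cAMP element TGACGTCA (1.85% of all windows) was in none of the 11. DUSP4, DUSP5 and ETV5 had no entry.

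ETV5 was at 39.7, 44.9, 42.5 and 49.7 CPM in normoxic and 48.5, 50.8, 46.2 and 58.5 in hypoxic PC3 cells. The ranges overlapped, but each hypoxic library exceeded the normoxic one with the same number, and the log2 change was 0.21 (standard error 0.09, or 0.05 with the replicate block). In HCT116 it was at 76.9, 91.0 and 70.7 CPM against 67.0, 83.7 and 79.1, a log2 change of -0.04 (standard error 0.10) that changed sign when single libraries were left out. ETV5 has 288 exon bases within the span of the antisense gene ETV5-AS1 and 697 within that of DGKG on the same strand, introns included. A part of its reads may thus be unassigned or come from them.

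**Figure D3:**
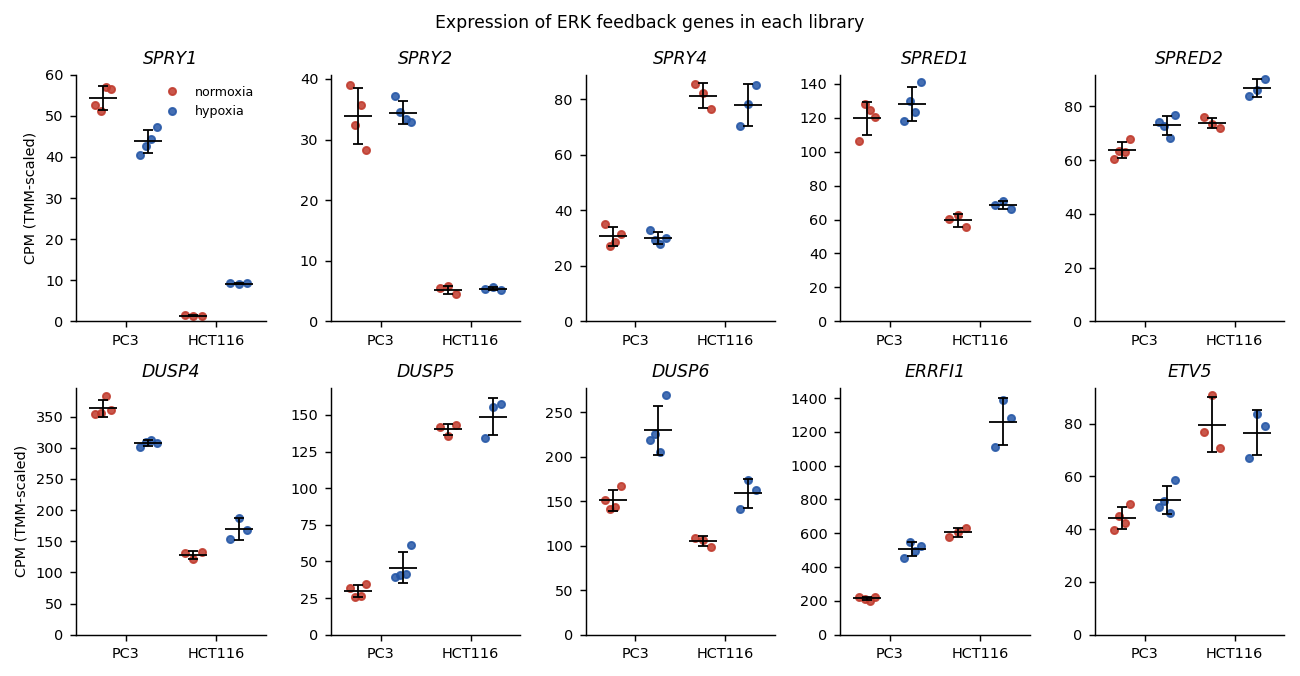
Expression of each gene in every library (points, y axis in CPM after TMM scaling, starting at 0) for PC3 (4 libraries per condition) and HCT116 (3 per condition), with normoxia in red and hypoxia in blue and bars for mean and SD. ERRFI1 and DUSP6 separate by condition in both lines, SPRY1 and DUSP4 separate in opposite directions, and SPRY2 and SPRY4 do not separate.

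Some libraries were high or low for several members together. Among hypoxic PC3 libraries, replicate 4 held the highest value for 6 of the 10 genes (SPRY1, SPRED1, SPRED2, DUSP5, DUSP6 and ETV5), and replicate 1 the lowest for 5. Among normoxic PC3 libraries, replicate 4 was highest for 4, all of them among those 6 (SPRED2, DUSP5, DUSP6 and ETV5). In HCT116, hypoxia replicate 1 was lowest for 7 genes and highest for none, and normoxia replicate 3 was lowest for 7. The share of all genes at these extremes was not computed, so the counts do not set the members apart from other genes.

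In normoxia the lines differed in the level of all 10 genes, 5 in each direction, where 81.3% of all genes differed (42.4% higher and 38.9% lower in PC3; edgeR, 15493 genes). With total-count scaling 9 members differed, 5 higher and 4 lower in PC3. The log2 difference of PC3 over HCT116 was 5.27 (standard error 0.10) for SPRY1, 2.69 for SPRY2, 1.50 for DUSP4, 1.01 for SPRED1 and 0.52 for DUSP6. It was -2.23 (standard error 0.14) for DUSP5, -1.50 for ERRFI1, -1.41 for SPRY4, -0.85 for ETV5 and -0.21 for SPRED2. Every family thus had members on both sides: SPRY1 and SPRY2 were higher in PC3 and SPRY4 in HCT116, SPRED1 in PC3 and SPRED2 in HCT116, DUSP4 and DUSP6 in PC3 and DUSP5 in HCT116. For the SPRED pair this rests on SPRED2, whose difference was the smallest of the 10. The median over the 10 was 0.16, beside 0.05 over all genes.

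Ordered by CPM per kilobase of exon, normoxic PC3 cells ran from ERRFI1 (51.5), DUSP4 (49.97) and DUSP6 (39.1) through SPRED1 (15.4), SPRY1 (13.7), DUSP5 (11.8), SPRED2 (11.6) and SPRY2 (10.5) to ETV5 (7.66) and SPRY4 (4.67). ERRFI1 and DUSP4 overlapped, and so did each neighbouring pair from SPRED1 to SPRY2. In normoxic HCT116 cells the order was ERRFI1 (145), DUSP5 (55.3), DUSP6 (27.2), DUSP4 (17.7), ETV5 (13.8), SPRED2 (13.4), SPRY4 (12.4), SPRED1 (7.67), SPRY2 (1.63) and SPRY1 (0.356), where the neighbours ETV5 and SPRED2 overlapped, and ETV5 also overlapped SPRY4. Hypoxia moved DUSP6 past DUSP4 in PC3, to 59.5 against 42.3, and DUSP5 up to 18.1, next to SPRED1 with which it overlapped. In hypoxic HCT116 cells SPRY1 at 2.33 passed SPRY2 at 1.69, and ERRFI1 reached 302 against 58.7 for DUSP5, the next in order. With the length of the longest transcript in place of all exons, neighbours among SPRY1, SPRY2, SPRED1, SPRED2 and DUSP5 changed places in PC3.

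**Figure D4:**
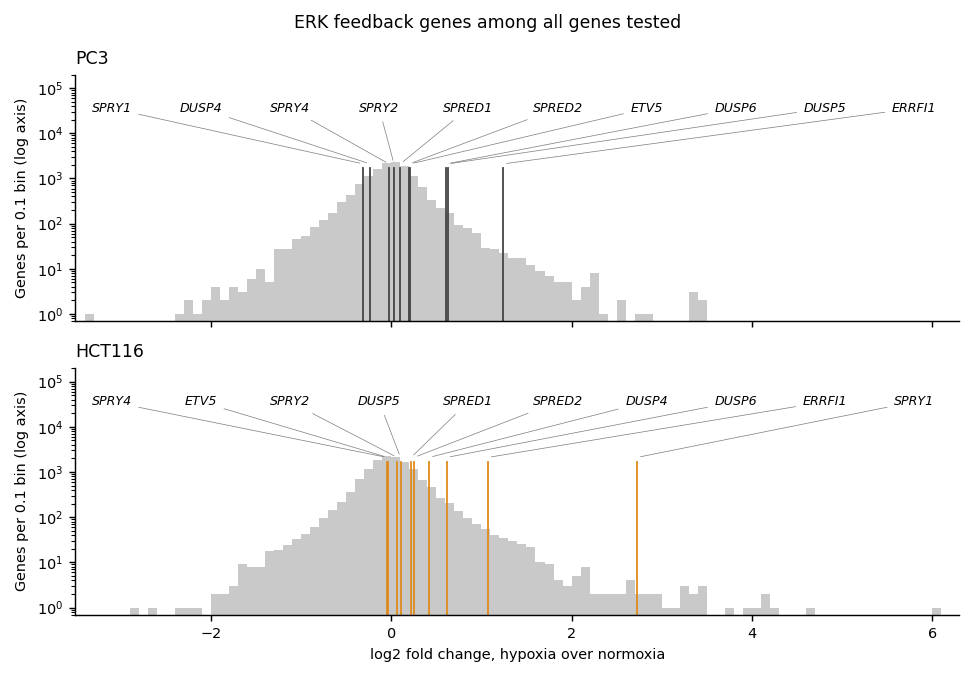
Log2 fold changes of the 10 genes (vertical lines) over the distribution of all genes tested (grey bars, number of genes per bin of 0.1 on a log axis) in PC3 and HCT116. Most members lie within the bulk of genes, while ERRFI1 in each line and SPRY1 in HCT116 lie in the upper tail, at 1.24, 1.07 and 2.72.

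The genes whose pattern over the 14 libraries was closest to a member were sought among 11199 genes with at least 1 CPM on average in each line, by the root mean square difference of log2 CPM centred on each line. For ERRFI1 they were HERC3 (0.10), C3orf58 (0.14) and RNF24 (0.14), whose log2 changes were 1.16 to 1.30 in PC3 and 0.93 to 1.35 in HCT116. The genes nearest to DUSP6 were EFNA4, RSBN1 and FOXN3 (0.08 to 0.09), with changes of 0.50 to 0.71 in PC3 and 0.60 to 0.71 in HCT116. Nearest to SPRY4 were TXNDC11, TANGO2 and USP43 (0.06 each), none of which changed by more than 0.06 in either direction. The members' own root mean square deviation about the line mean was 0.59 for ERRFI1, 0.32 for DUSP6 and 0.11 for SPRY4, so the last comparison rests mostly on noise between libraries.

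The rest of the pathway was read from lists of 85 genes that leave out the members. Of the 81 tested in PC3, 8 rose and 5 fell at an adjusted p under 0.05 (edgeR), with a median log2 change of 0.08. Of the 84 tested in HCT116, 19 rose and 3 fell, with a median of 0.06. Shares of 6.03% higher and 5.29% lower in PC3, and of 14.6% and 11.3% in HCT116, held for all genes. The split moved with the scaling: with upper-quartile scaling 6 rose and 7 fell in PC3, and with total-count scaling 6 rose and 9 fell in PC3, and 9 rose and 9 fell in HCT116. It moved in the same way over all genes, of whose calls 53.3% were higher in PC3 (39.4% with upper-quartile and 24.5% with total-count scaling) and 56.3% in HCT116 (29.0% with total-count scaling), where total-count scaling shifted the median gene by -0.10 and -0.09. With the replicate block, 18 of the pathway genes rose in PC3 and 11 fell. Without both PC3 libraries numbered 1, 11 rose and 5 fell.

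Among the other phosphatases and relatives of the members, 1 of 8 tested was higher in PC3 and 2 of 8 in HCT116, and none was lower. DUSP10, which acts mainly on p38 and JNK, rose in PC3 from a mean of 10.1 to 19.0 CPM, a log2 change of 0.91 (standard error 0.18, adjusted p = 0.0133, edgeR). DUSP1, an immediate early phosphatase, rose in HCT116 from 9.74 to 15.0 CPM, by 0.64 (standard error 0.10, adjusted p = 0.000942, edgeR), and DUSP9 rose by 0.44 (standard error 0.07, adjusted p = 0.00185). With 1 fit over both lines, which share 1 estimate of the spread, both HCT116 calls were lost (0.62, adjusted p = 0.368, and 0.42, adjusted p = 0.331, edgeR). In PC3, DUSP1 averaged 12.7 CPM in normoxia and 27.97 in hypoxia without passing the threshold (log2 change 1.15, standard error 0.45, adjusted p = 0.135, edgeR). It passed without normoxia replicate 1 (1.79, adjusted p = 0.01), without both libraries numbered 1 (1.41, adjusted p = 0.000411), with the replicate block (1.26, adjusted p = 0.000849) and with 1 fit over both lines (1.14, adjusted p = 0.0412).

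Genes that serve as readouts of ERK output were tested in the same way. In PC3, 1 of 18 was higher and none lower, where 6.03% of all genes were higher and 5.29% lower. In HCT116, 3 of 19 were higher and 1 lower, where 14.6% of all genes were higher and 11.3% lower. Counts this small do not tell the list apart from all genes. SPHK1, a sphingosine kinase, rose by 0.66 in PC3 (standard error 0.09, adjusted p = 0.00264, edgeR). PLAUR, the urokinase receptor, rose by 0.78 in HCT116 (standard error 0.10, adjusted p = 0.000328, edgeR), EGR3 by 0.79 (standard error 0.21, adjusted p = 0.0172) and MYC by 0.23 (standard error 0.06, adjusted p = 0.0231), and F3, tissue factor, fell by 0.40 (standard error 0.13, adjusted p = 0.041). The calls of EGR3, MYC and F3 were lost with 3, 5 and 4 of the 6 libraries left out in turn, at adjusted p up to 0.0739, 0.13 and 0.13, and with 1 fit over both lines (adjusted p = 0.0785, 0.108 and 0.256). The PEA3 relatives of ETV5 did not pass, with ETV4 at 0.20 (standard error 0.15) in PC3 and -0.05 (standard error 0.06) in HCT116, and ETV1 at -0.48 (standard error 0.28) and -0.02 (standard error 0.09).

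Receptors, adaptors and kinases of the cascade gave 4 higher of 29 in PC3 and 8 of 30 in HCT116, with none lower. MAP2K1, which encodes the kinase MEK1, rose in both lines, by 0.64 in PC3 (standard error 0.07, adjusted p = 0.000853, edgeR) and 0.47 in HCT116 (standard error 0.06, adjusted p = 0.000312). EGFR, the receptor that ERRFI1 inhibits, rose by 0.52 in PC3, from 308 to 439.6 CPM (standard error 0.10, adjusted p = 0.0136, edgeR), and by 0.51 in HCT116, from 48.0 to 67.7 CPM (standard error 0.07, adjusted p = 0.000764). Without PC3 normoxia replicate 3 the EGFR call in PC3 was lost (0.49, adjusted p = 0.0572). GAB1, an adaptor, rose in HCT116 by 0.76 (standard error 0.17, adjusted p = 0.00901, edgeR). MET, the receptor of hepatocyte growth factor, was past the threshold in PC3 at 0.35 (adjusted p = 0.0426) and was lost with 6 of the 8 libraries left out in turn, at adjusted p up to 0.134 (without normoxia replicate 2).

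Other brakes on the pathway went both ways, where 2 of 19 rose and 2 fell in PC3, and 3 of 19 rose and 2 fell in HCT116. Over all genes, 6.03% rose and 5.29% fell in PC3, and 14.6% rose and 11.3% fell in HCT116. In PC3, TOB1, an antiproliferative protein, rose by 0.59 (standard error 0.08, adjusted p = 0.00314, edgeR) and CBL, a ubiquitin ligase for the EGF receptor, by 0.49 (standard error 0.09, adjusted p = 0.00888). LRIG1, which also restrains the EGF receptor, fell by 0.48 (adjusted p = 0.0388), a call that was lost with 6 of the 8 libraries left out in turn (adjusted p up to 0.127, without normoxia replicate 3) and without both libraries numbered 1 (adjusted p = 0.0702). LZTR1, an adaptor for degradation of RAS proteins, fell in both lines, by 0.35 in PC3 (standard error 0.07, adjusted p = 0.0179, edgeR) and 0.40 in HCT116 (standard error 0.08, adjusted p = 0.00353). Its PC3 call was lost without normoxia replicate 2, normoxia replicate 3 or hypoxia replicate 2, at adjusted p up to 0.0701. In HCT116, PHLPP1 rose by 0.37 (standard error 0.07, adjusted p = 0.00278, edgeR), SOCS3 by 0.31 (standard error 0.07, adjusted p = 0.00746) and IL17RD, a membrane antagonist of FGF signalling, by 0.26 (standard error 0.09, adjusted p = 0.0438), and ZFP36, an mRNA decay factor, fell by 0.31 (standard error 0.10, adjusted p = 0.0385). The IL17RD and ZFP36 calls were lost with 5 and 4 of the 6 libraries left out in turn, at adjusted p up to 0.138 and 0.126. With 1 fit over both lines the HCT116 calls of SOCS3, IL17RD and ZFP36 were lost (adjusted p = 0.276, 0.12 and 0.142, edgeR). SOCS3 in PC3 was at 0.57 (adjusted p = 0.053), and passed with the replicate block (adjusted p = 0.0137), without both libraries numbered 1 (adjusted p = 0.0201) and with 1 fit over both lines (adjusted p = 0.0126).

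Of the ligands of the EGF receptor family, 3 of 7 tested fell in PC3 and none rose, where 5.29% of all genes were lower and 6.03% higher. In HCT116, 3 of 8 rose and none fell, where 14.6% of all genes were higher and 11.3% lower. The list was chosen with earlier results of these data known, so nothing is read from the counts. EPGN fell in PC3 from 113 to 31.1 CPM, by 1.85 in log2 units (standard error 0.12, adjusted p = 0.000126, edgeR), AREG by 0.92 (standard error 0.15, adjusted p = 0.00589) and BTC by 0.62 (standard error 0.08, adjusted p = 0.00286). In HCT116, BTC rose by 0.44 (standard error 0.15, adjusted p = 0.0496), HBEGF by 0.34 (standard error 0.09, adjusted p = 0.021) and TGFA by 0.24 (standard error 0.08, adjusted p = 0.037), and these calls were lost with 6, 3 and 4 of the 6 libraries left out in turn, at adjusted p up to 0.15, 0.0985 and 0.148. Under total-count scaling all 3 were short of the threshold, and with 1 fit over both lines HBEGF and TGFA were (adjusted p = 0.409 and 0.471).

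**Figure D5:**
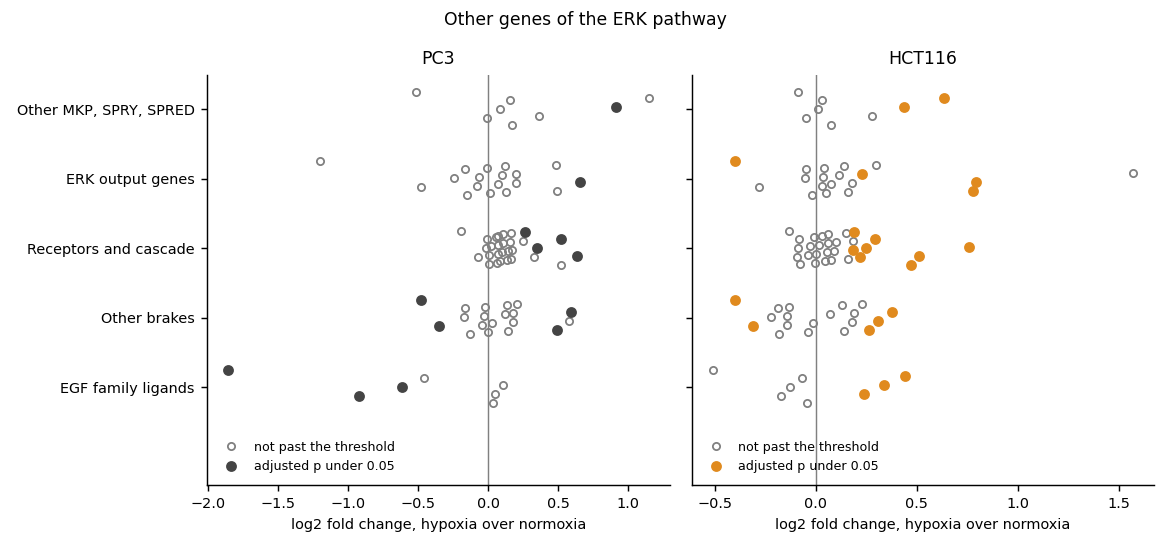
Log2 fold change in hypoxia over normoxia (x axis) of other ERK pathway genes in PC3 and HCT116, 1 row per list, with filled points at an adjusted p under 0.05 (edgeR) and open points otherwise. EPGN at -1.85 is the largest fall in PC3 and PLAUR and EGR3 (0.78 and 0.79) lead the filled points in HCT116. Counts of filled points on each side of 0 shift with total-count scaling.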

How the data were processed

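Polyadenylated RNA was sequenced as paired ends from PC3 (4 replicates per condition) and HCT116 (3). Per the submitters' processing notes and the study's methods, reads were aligned to GRCh37 with HISAT2 2.05 after removal of ERCC reads, handled with SAMtools and counted on RefSeq genes with HTSeq 0.5.4p3 in intersection-strict mode. The authors deposited raw counts per gene for each library and tested them with DESeq2. The RefSeq release and the strandedness are not given in the sources used here. ERCC reads were not used here, so changes are relative to the bulk of genes and a change of total mRNA would not show.

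Counts were fitted with edgeR 4.0.16 in R 4.3.3 (filterByExpr, TMM, quasi-likelihood test, Benjamini-Hochberg over all genes tested, threshold 0.05) in each line. The interaction of line and oxygen and the normoxic difference came from a fit of all 14 libraries. Standard errors are the log2 change over the square root of F. CPM values use TMM library sizes. A count of 3 corresponds to at most 0.0447 CPM, a limit that covers counting error only. Levels per length divide CPM by the union of exons of GENCODE genes lifted to GRCh37, and promoters are RefSeq windows on GRCh38.p14.

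The members, the gene lists (other family members, ERK output, cascade, other brakes, EGF ligands) and the tests were chosen with earlier results of these data known. All members are named. From each list up to 3 genes per line and direction are named, those with the largest change past the threshold and at least 1 CPM on average. The genes of nearest pattern follow a rule as well, and DUSP1 and SOCS3 in PC3, ETV1 and ETV4 were named after their values were seen. Same-numbered PC3 libraries deviated together across 11199 genes (r = 0.800, 0.500, 0.332 and 0.324), so the numbers pair them. The main fits left this pairing out, and their PC3 standard errors were wider for every member than with the replicate block. No pair of replicates agreed within counting noise. Alternatives were scaling by total count, upper quartile or median of ratios, DESeq2 1.42.0, other filters, the replicate block, 1 fit over both lines, the longest transcript and each library left out. The fit without both PC3 libraries numbered 1 was added after seeing the data. The fits were tested on simulated data with the same spread for all genes and 2-fold changes in 200 well-counted genes. All 200 were recovered in each line, with 9 false calls in PC3 and 3 in HCT116. The simulation held no paired replicates and no outlying library, so it does not cover those features of the PC3 data.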

Additional observations from a re-analysis of the deposited data

Results flagged for a closer look

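Within 20 groups of 4 PC3 values (10 genes in each condition), 1 held a library far from the other 3, and chance gives about 1. DUSP5 was at 61.5 CPM in hypoxia replicate 4 against 39.6 to 41.7 in the other hypoxic PC3 libraries.

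SPRY1 responded in opposite directions, with every hypoxic PC3 library below every normoxic one and every hypoxic HCT116 library above, and its responses differed by -3.02 on the log2 scale (PC3 minus HCT116). DUSP4 behaved in the same way, with a difference of -0.64. Both lay past the threshold of the interaction fit over all genes, but the genes were chosen for their direction in each line, so the differences are descriptions and were not tested on other samples.

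Outside the members, the interaction of line and oxygen passed the threshold for 4 of 84 pathway genes, beside 2.32% of all genes (edgeR). BTC differed by -1.05 (PC3 minus HCT116, adjusted p = 0.000813, lower in PC3 and higher in HCT116), EPGN by -1.72 (adjusted p = 0.0168), PLAUR by -0.64 (adjusted p = 0.0378) and TOB1 by 0.61 (adjusted p = 0.0194). EPGN stood at 0.177 and 0.158 CPM in HCT116, so its response there is poorly measured. BTC was also low in HCT116, at 1.32 CPM in normoxia and 1.77 in hypoxia. Its HCT116 rise fell short of the threshold with median-of-ratios scaling (adjusted p = 0.054) and with the replicate block (adjusted p = 0.0564, edgeR). Leaving out single libraries took PLAUR to an adjusted p of up to 0.119 (without HCT116 hypoxia replicate 2, past 0.05 with 11 of 14), EPGN to 0.104 (without HCT116 hypoxia replicate 1) and TOB1 to 0.062 (without HCT116 normoxia replicate 3), and the adjusted p of BTC stayed under 0.05 in each.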

How the results depend on the processing

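No log2 change past the threshold of a member, or of a gene named by rule from the pathway lists, reversed under any alternative run. The hypoxia controls, cell type markers and genes of nearest pattern were not followed through the alternatives. In PC3, calls over all genes were 1620, against 2601 with DESeq2, 4074 with the replicate block and 2465 with 1 fit over both lines, and the pathway calls were 13 against 29 with the block. In HCT116, 1 fit over both lines gave 1733 calls in place of 3658 and 7 pathway calls in place of 22. The interaction gave 359 calls over all genes, 963 with DESeq2 and 1306 with the replicate block, and 4 pathway calls, 10 with DESeq2 and 15 with the block, and 2 members, 3 with the block. For these counts the cause was not tested.

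With single libraries left out, calls over all genes ran from 553 to 2085 in PC3, 2560 to 3339 in HCT116, 177 to 717 for the interaction and 12152 to 12438 for the lines in normoxia. Pathway calls ran from 8 to 16, 11 to 19, 1 to 7 and 71 to 72, and members past the threshold from 2 to 5, 4 to 6, 2 to 2 and 10 to 10. Arms left with 2 libraries share their spread with the other groups of the fit. The lowest PC3 counts came without normoxia replicate 3 (all genes and pathway).

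The HCT116 numbers only mark replicates: same-numbered libraries correlated at 0.0617, 0.423 and -0.0746, with 1 of 3 closest to its own number, and the replicate block there gave 6 members and 20 pathway genes. In PC3 the block changed no member call beyond SPRED2 and ETV5. SPRY2 and SPRY4 in both lines, SPRED1 in PC3 and ETV5 in HCT116 changed sign in 1 to 4 alternatives each, all from changes near 0. Levels per kilobase moved in 31 of 40 values with the longest transcript, and the family shares and sums were not recomputed with it. SPRY1 in normoxic HCT116 cells rests on the fewest counts of any member, 169 to 229.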
